A study of Homo sapiens with 6 samples.

Results

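The genes described here make cholesterol and fatty acids or control that supply, in DU-145 cells, a human prostate cancer line. They are 29 of the 60662 genes in the deposited count table, chosen by name. Of these, 18 encode enzymes of the sterol pathway, 5 encode its sensors and transcription factors, 1 a sterol carrier, 2 proteins of sterol export and receptor turnover, and 3 enzymes of fatty acid synthesis. The list does not hold every enzyme of the pathway. All 6 cultures carried a stably expressed, tetracycline-inducible short hairpin RNA vector against MUC1, which encodes a transmembrane mucin. The 3 DOX-positive cultures received doxycycline (DOX), the inducer, for 7 days, and the 3 DOX-negative cultures received vehicle for 7 days. Both groups were then stimulated with interferon-gamma at 10 ng/ml for 24 hours. No cells without interferon-gamma and no DOX-treated cells with another hairpin were analysed here, so any effect of DOX itself and of the hairpin cannot be told apart here, and the response to interferon-gamma is not measured. The labels do not say whether the line is 1 clone.

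Cells build cholesterol from acetyl-CoA through mevalonate, squalene and lanosterol. When membrane sterol is low, SCAP escorts the SREBP transcription factors, encoded by SREBF1 and SREBF2, from the endoplasmic reticulum to the Golgi, where proteases release them to switch on synthesis genes. INSIG proteins hold SCAP back when sterol is plentiful. Excess sterol is sensed as oxysterol by the nuclear receptors LXR-alpha and LXR-beta, which drive ABCA1, a cholesterol exporter, and MYLIP, a ubiquitin ligase that removes lipoprotein receptors. Cancer cells of the prostate are known for active lipid synthesis.

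Library totals lay between 87739734 and 150921436 counted reads. Levels are given as CPM, the read count scaled to library depth with TMM factors, and positions as in GENCODE 29 (GRCh38). The targeted gene, MUC1 (ENSG00000185499.16, chr1:155185824-155192916, minus strand), read 1.53, 1.31 and 1.32 CPM in DOX-positive libraries, against 20.4, 21.8 and 22.2 CPM in DOX-negative ones. It was lower in all 3 DOX-positive libraries, 15.5-fold (log2 fold change -3.96, SE 0.08, edgeR adjusted p = 5.12e-16), as their labels say. Of the defining markers, the 6 epithelial genes were all detected. Among prostate luminal markers, TMPRSS2 averaged 0.0885 CPM in DOX-positive cells and 0.101 CPM in DOX-negative cells. KLK2 had at most 2 reads in a library and KLK3 had 0 in each. The summed level of the 6 epithelial markers lay between 2884 and 3035 CPM in DOX-positive cells and between 1287 and 1351 CPM in DOX-negative cells. All 6 of 6 rose, and their part in the values below was not tested. The sum of 5 leukocyte markers lay between 0.291 and 0.404 CPM in DOX-positive libraries and between 0.996 and 1.13 CPM in DOX-negative ones. Marker sums of endothelium, hepatocytes, adipocytes and steroidogenic cells stayed at or below 0.633 CPM in each library. The sum of 3 macrophage markers lay between 0.673 and 0.737 CPM in DOX-positive libraries and between 0.120 and 0.261 CPM in DOX-negative ones. Of these MARCO rose 8.78-fold, on at most 54 reads per library. CD68 also rose, with 0.268 ± 0.0666 CPM in DOX-positive cells and 0.135 ± 0.0397 CPM in DOX-negative cells, and MSR1 was too low to test. The fibroblast sum reached 4.98 CPM in DOX-positive and 7.37 CPM in DOX-negative libraries, nearly all of it COL1A1. The part of these markers was not tested either. In bulk RNA, fewer cells of a type and less RNA per cell cannot be told apart.

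Promoters of 25 of the 29 genes were found by symbol in RefSeq (GRCh38.p14). ACAT2, FDFT1, SQLE and FASN were not matched. Those of 4 genes are shown because the values below turn on them: HMGCS1 had the highest fold change among the enzymes, SREBF2 and SREBF1 encode the SREBP factors and moved apart, and ABCA1 had the highest fold change of all 29. Each line holds the 250 bases before the RefSeq start, read 5′ to 3′ on the gene's strand. GENCODE 29 places the outermost start of each of the 4 genes inside its window. Capitals mark the letters TCACNCCAC of a sterol regulatory element, CCAAT (the NF-Y box) and GGGCGG (the Sp1 box), searched on both strands and with overlaps allowed. The HMGCS1 window belongs to the first of its 2 listed starts (chr5:43313413-43313662, minus strand). The others lie at chr22:41832855-41833104, plus strand (SREBF2), chr17:17836987-17837236, minus strand (SREBF1) and chr9:104928156-104928405, minus strand (ABCA1).
HMGCS1: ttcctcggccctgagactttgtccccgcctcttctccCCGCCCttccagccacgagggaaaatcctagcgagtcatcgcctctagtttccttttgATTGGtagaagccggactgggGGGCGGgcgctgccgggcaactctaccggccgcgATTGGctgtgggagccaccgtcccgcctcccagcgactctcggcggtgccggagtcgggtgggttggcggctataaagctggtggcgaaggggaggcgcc
SREBF2: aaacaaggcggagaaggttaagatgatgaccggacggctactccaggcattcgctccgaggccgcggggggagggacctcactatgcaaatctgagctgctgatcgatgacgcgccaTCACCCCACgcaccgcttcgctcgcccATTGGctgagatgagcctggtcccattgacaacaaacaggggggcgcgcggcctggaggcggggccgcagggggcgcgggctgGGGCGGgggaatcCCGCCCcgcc
SREBF1: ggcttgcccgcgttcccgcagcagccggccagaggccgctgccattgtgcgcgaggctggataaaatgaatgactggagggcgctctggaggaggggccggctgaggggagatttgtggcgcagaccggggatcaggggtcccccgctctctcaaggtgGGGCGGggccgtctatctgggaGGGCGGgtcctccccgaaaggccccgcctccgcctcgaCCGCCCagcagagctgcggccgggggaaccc
ABCA1: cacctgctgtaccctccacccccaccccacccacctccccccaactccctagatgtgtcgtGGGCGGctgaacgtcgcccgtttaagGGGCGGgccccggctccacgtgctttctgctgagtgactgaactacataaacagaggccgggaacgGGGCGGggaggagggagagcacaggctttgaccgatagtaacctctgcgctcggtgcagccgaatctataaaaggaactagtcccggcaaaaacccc
The SREBF2 window holds the sterol regulatory element letters 133 bases before the start, on the gene's strand, and a CCAAT box on the other strand 106 bases before it. HMGCS1 holds CCAAT boxes 155 and 100 bases before the start, both on the other strand. The windows of SREBF1 and ABCA1 held GGGCGG and neither of the other motifs. Over the whole window of 250 bases before to 50 after the start, TCACNCCAC was in 1 of the 25 genes, that is 4.0%, and in 1.39% of all 27305 gene symbols in the table. CCAAT was in 19 of the 25 genes, that is 76.0%, and in 39.7% of all symbols. GGGCGG was in 24 of the 25, that is 96.0%, and in 48.3% of all symbols. All symbols were taken whatever their expression, and genes of like level were not compared, so these gaps may not be particular to the pathway. The DR4 direct repeat known from LXR target genes was searched only in its perfect form, with 4 free bases between identical copies. That perfect form was in 0 of the 25 and in 0.0256% of all symbols. Imperfect repeats were not searched, so the 0 does not show that the ABCA1 promoter lacks a DR4 element. A match is a description of the letters and not of binding. Variants of these letters were not counted, so a missing match does not show that a promoter lacks such an element.

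In DOX-positive cells 26 of the 29 genes rose, 2 fell (SREBF1 and MYLIP) and 1 (ACACA) did not pass, at an edgeR adjusted p under 0.05. Among all 24695 genes tested 27.6% were called higher and 28.9% lower. Among the 10171 genes with a mean level at or above that of the lowest of the 29, 49.8% were called higher and 29.4% lower. The median log2 fold change of the 29 was 0.53, beside -0.042 over all genes tested and 0.099 over those 10171. At least 1.5-fold increases were called for 12 of the 29, against 8.7% of all genes tested and 9.34% of the 10171. For 26 genes the 3 DOX-positive values lay clear above the 3 DOX-negative ones, and for 2 clear below. That separation held for 29.8% and 32.6% of all genes tested, and for 51.1% and 30.5% of the 10171. With libraries scaled by size alone the median of all genes shifted by -0.14, and calls over all genes became 4689 higher and 9579 lower, against 6825 and 7132. Under that scaling 25 of the 29 rose and 3 fell.

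**Figure D1:**
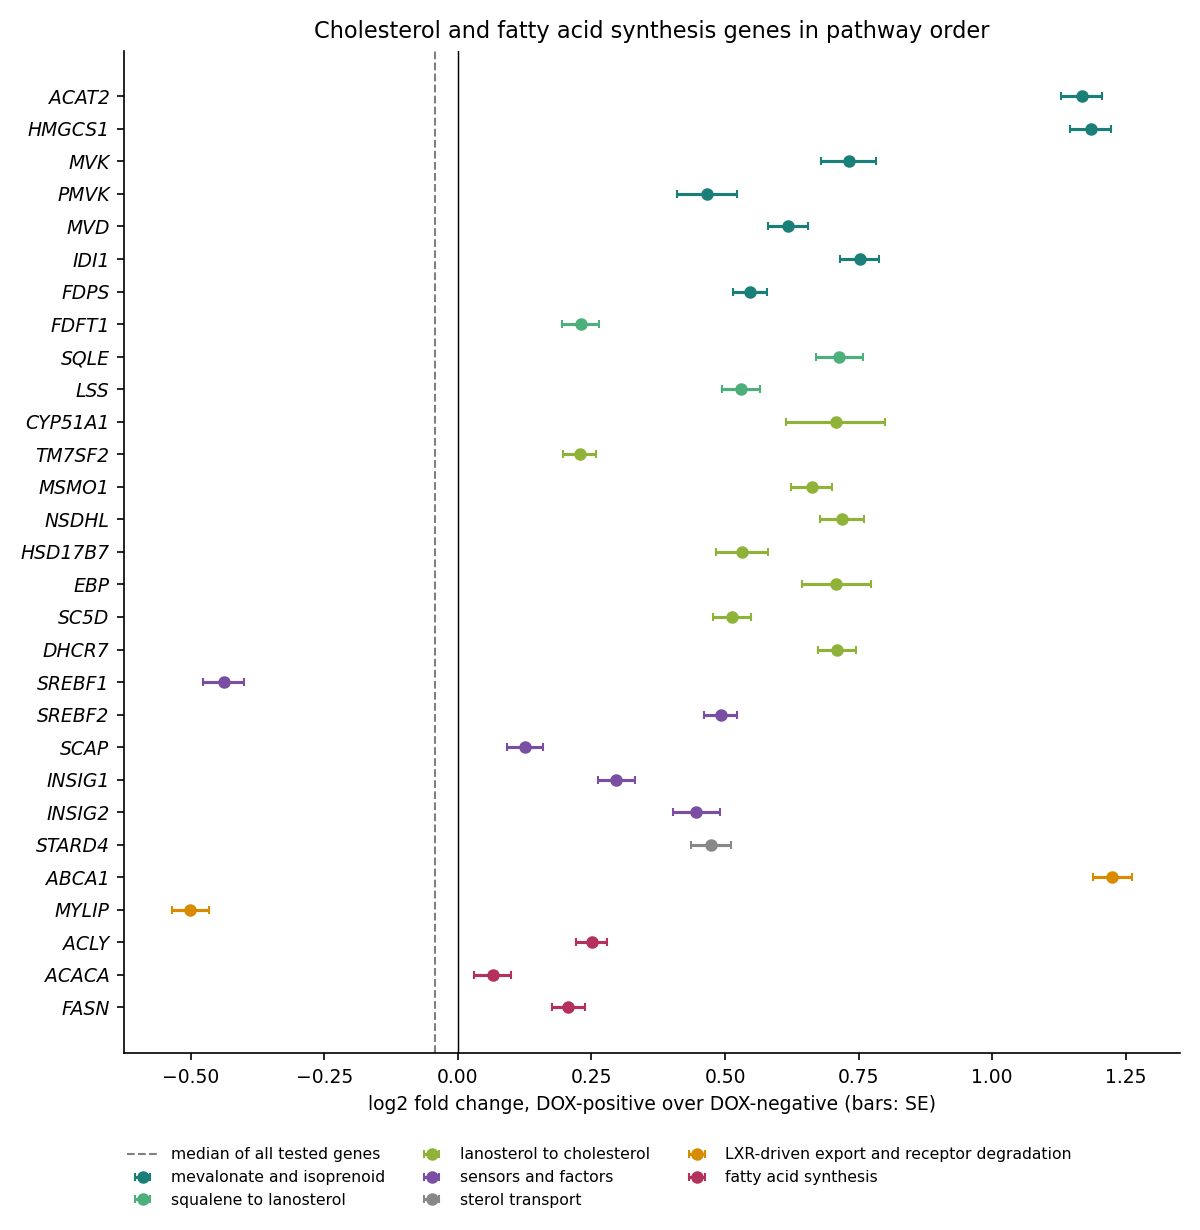
Log2 fold change of each of the 29 genes in DOX-positive over DOX-negative cells, in pathway order from top to bottom, with bars for the SE and colours for the step. All 18 sterol enzymes lie right of 0, between 0.23 (TM7SF2) and 1.18 (HMGCS1), while SREBF1 and MYLIP lie left of it and ACACA sits at 0.065.

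All 7 enzymes from acetyl-CoA to farnesyl pyrophosphate rose, and their median log2 fold change was 0.73. HMGCS1, the cytosolic synthase that makes HMG-CoA (ENSG00000112972.15, chr5:43289395-43313512, minus strand), read 361, 361 and 359 CPM in DOX-positive libraries, against 164, 149 and 164 CPM in DOX-negative ones. Every DOX-positive library was above 2 times the level of any DOX-negative one, and the DOX-positive values lay close together. The rise was 2.27-fold (log2 fold change 1.18, SE 0.04, edgeR adjusted p = 1.88e-13). ACAT2, the cytosolic thiolase of the first step (ENSG00000120437.9, chr6:159760328-159779055, plus strand), read 103, 106 and 109 CPM in DOX-positive libraries, against 46.7, 45.2 and 49.8 CPM in DOX-negative ones, a 2.25-fold rise (log2 fold change 1.17, SE 0.04, edgeR adjusted p = 2.63e-13). These entry enzymes had the highest fold changes of the 18, and their groups stood well apart. In GENCODE 29, ACAT2 shares 9.23% of its exon bases with TCP1, a chaperonin gene on the opposite strand whose log2 fold change was 0.28. It also shares 33.9% with SOD2-OT1, a noncoding gene on the opposite strand with 0.635 CPM in DOX-positive cells and 0.660 CPM in DOX-negative cells, and 26.5% with a second annotated SOD2 gene of under 0.122 CPM in each group.

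The later steps of this stretch moved by smaller amounts. IDI1, the isomerase of isopentenyl pyrophosphate, read 237, 240.4 and 243 CPM in DOX-positive libraries, against 145, 136 and 148 CPM in DOX-negative ones (log2 fold change 0.75, SE 0.04, edgeR adjusted p = 2.33e-11). MVK, the first of the kinases that act on mevalonate, averaged 18.0 ± 0.481 CPM in DOX-positive cells and 10.9 ± 0.408 CPM in DOX-negative cells, a 1.66-fold rise. The following kinase PMVK, with 17.7 ± 0.648 CPM in DOX-positive cells and 12.8 ± 0.847 CPM in DOX-negative cells, rose 1.38-fold. The decarboxylase MVD averaged 45.6 ± 1.804 CPM in DOX-positive cells and 29.7 ± 0.207 CPM in DOX-negative cells, 1.53-fold apart. FDPS, which joins the isoprenoid units into farnesyl pyrophosphate, rose 1.46-fold to 78.3 ± 2.17 CPM in DOX-positive cells, against 53.6 ± 0.977 CPM in DOX-negative cells (SD, n = 3 each). None of these genes overlapped between groups. PMVK changed least of the 7, with a log2 fold change of 0.47 (edgeR adjusted p = 2.14e-06).

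Of the 3 enzymes that lead from farnesyl pyrophosphate to lanosterol, all rose, but unequally. FDFT1, squalene synthase and the entry into the sterol branch, read 243, 242 and 242 CPM in DOX-positive libraries, against 216, 200.1 and 205 CPM in DOX-negative ones. The groups were apart by 1.17-fold (log2 fold change 0.23, SE 0.03, edgeR adjusted p = 2.15e-05), and it was 0.087 on the log2 scale with libraries scaled by size alone (edgeR adjusted p = 0.0265). SQLE, which oxidises squalene and is known as a control point of the pathway, read 173, 182 and 186 CPM in DOX-positive libraries, against 110.1, 103 and 117 CPM in DOX-negative ones and rose 1.64-fold (log2 fold change 0.71, SE 0.04, edgeR adjusted p = 4.55e-10). LSS, which closes the ring to lanosterol, rose 1.44-fold, with 70.0 ± 1.91 CPM in DOX-positive cells and 48.5 ± 1.96 CPM in DOX-negative cells. The lowest DOX-positive library of each of the 3 genes exceeded its highest DOX-negative one.

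All 8 enzymes that turn lanosterol into cholesterol rose, and their median log2 fold change was 0.68. DHCR7, a reductase of the last step (ENSG00000172893.15, chr11:71428193-71452868, minus strand), read 314, 298 and 308 CPM in DOX-positive libraries, against 185, 182 and 194 CPM in DOX-negative ones (log2 fold change 0.71, SE 0.04, edgeR adjusted p = 3.47e-11). It had the highest level per kilobase of the 8, and its groups were 1.64-fold apart. NSDHL, a dehydrogenase that helps remove methyl groups from the ring, rose 1.65-fold, with 28.7 ± 0.483 CPM in DOX-positive cells and 17.4 ± 0.571 CPM in DOX-negative cells. The methylsterol oxidase MSMO1 rose 1.58-fold to 124 ± 0.389 CPM in DOX-positive cells, against 78.3 ± 4.31 CPM in DOX-negative cells. None of these genes overlapped between groups, nor did the next 3. The sterol isomerase EBP averaged 10.7 ± 0.153 CPM in DOX-positive cells and 6.53 ± 0.337 CPM in DOX-negative cells, a 1.63-fold rise. The ketosteroid reductase HSD17B7 averaged 24.2 ± 0.745 CPM in DOX-positive cells and 16.8 ± 0.946 CPM in DOX-negative cells, a 1.45-fold rise. The desaturase SC5D averaged 165 ± 2.90 CPM in DOX-positive cells and 115 ± 4.51 CPM in DOX-negative cells, a 1.43-fold rise. Among the 8, the fold changes of 7 lay between 1.43 and 1.65. TM7SF2, a sterol reductase, changed least, with 68.0, 66.2 and 68.6 CPM in DOX-positive libraries, against 57.6, 59.0 and 56.4 CPM in DOX-negative ones (log2 fold change 0.23, SE 0.03, edgeR adjusted p = 9.17e-06). With libraries scaled by size alone it was 0.085 (edgeR adjusted p = 0.0249).

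CYP51A1, the lanosterol demethylase, rose 1.63-fold, with 10.6, 10.1 and 11.0 CPM in DOX-positive libraries, against 7.69, 6.11 and 5.61 CPM in DOX-negative ones (log2 fold change 0.71, SE 0.09, edgeR adjusted p = 5.65e-06). Its level per kilobase was the lowest but 1 of the 29, and its SE was the largest of the 29. In GENCODE 29, 79.4% of its exon bases also belong to another protein-coding gene on the same strand, AC000120.2, which averaged 0 CPM in DOX-positive cells and 0.00335 CPM in DOX-negative cells. How shared reads were counted is not given in the sources used here, so the level of CYP51A1 is uncertain. Its pseudogenes CYP51A1P1 and CYP51A1P2 averaged 2.86 and 2.28 CPM in DOX-positive cells, against 1.23 and 0.953 CPM in DOX-negative cells, with log2 fold changes of 1.20 and 1.27. HSD17B7P2 had a log2 fold change of 0.50, beside 0.53 for HSD17B7.

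Added over the 18 sterol enzymes, the level was 2092, 2087 and 2109 CPM in the DOX-positive libraries, against 1327, 1259 and 1334 CPM in the DOX-negative libraries. The DOX-positive sums all exceeded the DOX-negative ones, of which replicate 2 was the lowest. This sum describes the libraries and was not tested.

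**Figure D2:**
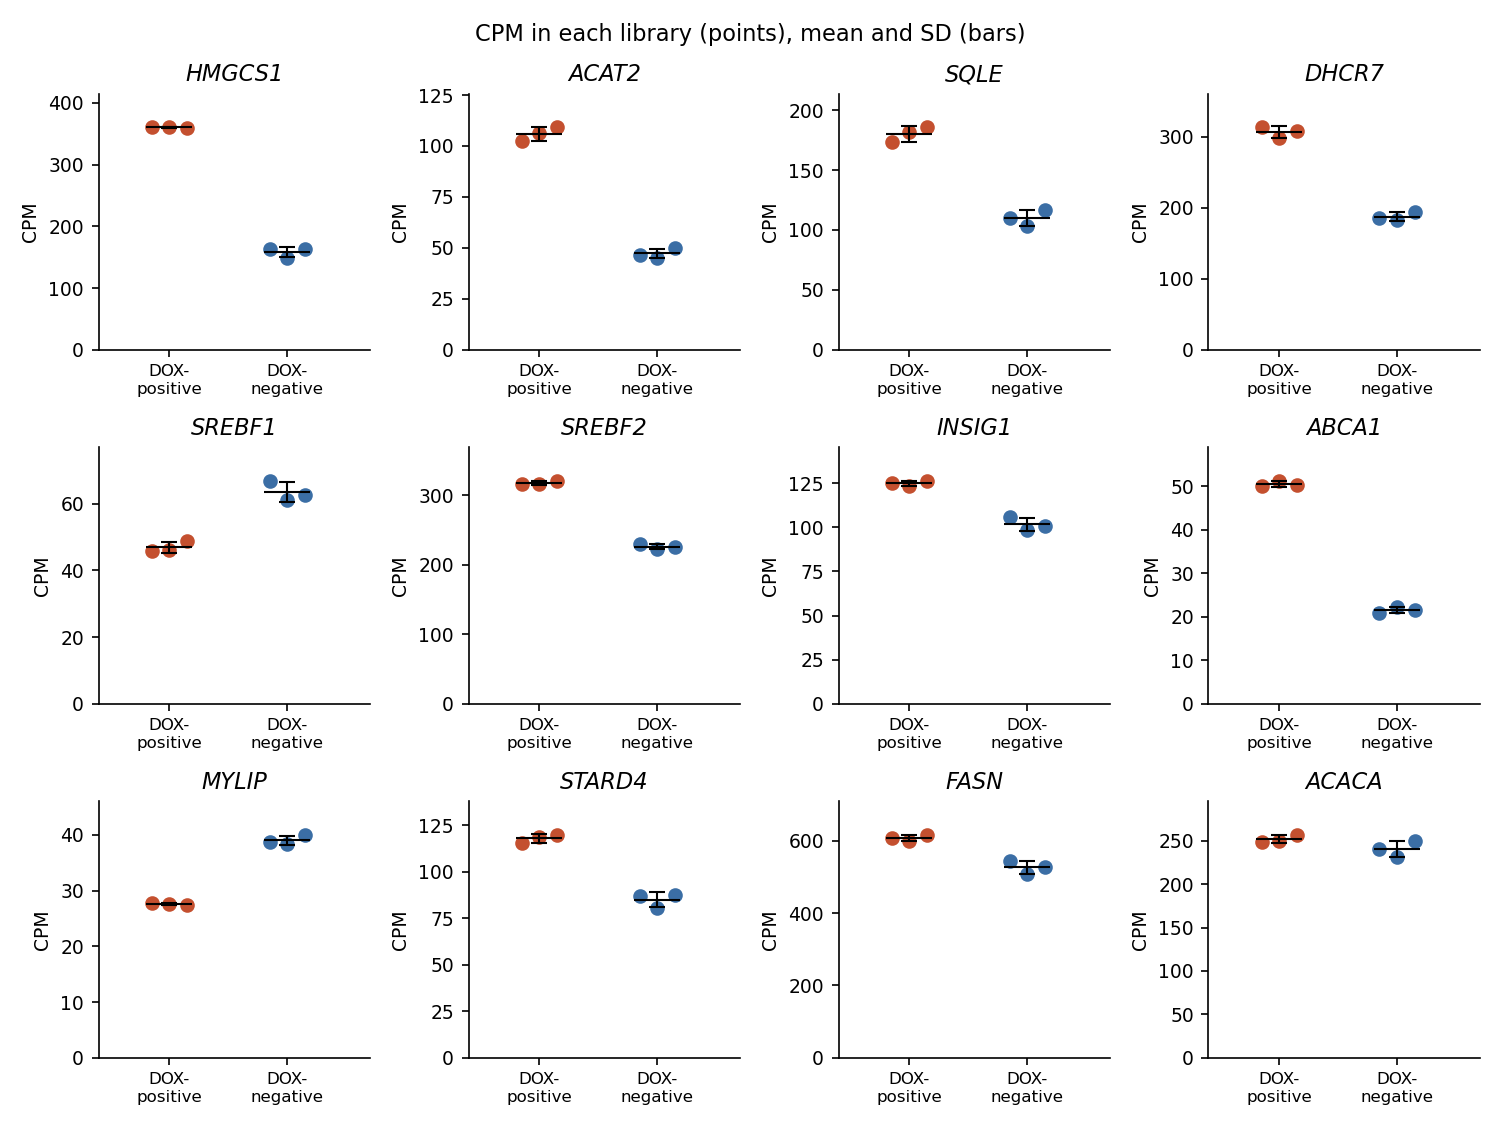
CPM of 12 of the 29 genes in each library (points), with the group mean and SD (bars) and each axis starting at 0, DOX-positive on the left of each panel. HMGCS1, ACAT2 and ABCA1 stand more than 2-fold apart, SREBF1 and MYLIP are lower in DOX-positive cells, and ACACA overlaps between the groups.

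Among the sensors and factors, the SREBP genes moved in opposite directions. SREBF2, whose product SREBP-2 acts mainly on cholesterol genes (ENSG00000198911.12, chr22:41833079-41907308, plus strand), read 317, 316 and 321 CPM in DOX-positive libraries, against 229.8, 222 and 226 CPM in DOX-negative ones (log2 fold change 0.49, SE 0.03, edgeR adjusted p = 6.37e-10). SREBF1, whose products SREBP-1a and SREBP-1c act more on fatty acid genes (ENSG00000072310.17, chr17:17810399-17837002, minus strand), read 45.8, 46.0 and 48.8 CPM in DOX-positive libraries, against 66.8, 61.2 and 62.5 CPM in DOX-negative ones (log2 fold change -0.44, SE 0.04, edgeR adjusted p = 4.8e-08). SREBF2 was 1.41-fold higher and SREBF1 1.35-fold lower, with no overlap of groups for either. The table gives 1 count per gene, so the SREBF1 isoforms cannot be told apart. SREBF1 shares 6.92% of its exon bases with RAI1 on the opposite strand, which had a log2 fold change of -0.39.

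Within a library, where scaling plays no part, the SREBF1 to SREBF2 ratio of reads was 0.145, 0.146 and 0.152 in the DOX-positive libraries, against 0.291, 0.275 and 0.277 in the DOX-negative libraries. The log2 difference was -0.93 (exact two-sided permutation p = 0.1, the smallest that 3 against 3 libraries allows, and 0.2 after Benjamini-Hochberg adjustment over 4 ratios). Per kilobase, SREBF1 stood at 0.133, 0.133 and 0.140 of SREBF2 in the DOX-positive libraries, against 0.267, 0.252 and 0.254 in the DOX-negative libraries. SREBF2 was thus the more abundant factor gene in all 6 libraries.

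INSIG1, an SREBP target that retains SCAP, read 125, 123 and 126 CPM in DOX-positive libraries, against 106, 98.6 and 101 CPM in DOX-negative ones (log2 fold change 0.30, SE 0.03, edgeR adjusted p = 1.39e-06). INSIG2, its paralog, read 26.9, 29.8 and 29.1 CPM in DOX-positive libraries, against 20.5, 21.3 and 21.1 CPM in DOX-negative ones (log2 fold change 0.45, SE 0.04, edgeR adjusted p = 2.1e-07). Both rose, INSIG1 (0.15 with libraries scaled by size alone) by less than all of the sterol enzymes except FDFT1 and TM7SF2. Their ratio of reads was 4.65, 4.15 and 4.34 in the DOX-positive libraries, against 5.16, 4.64 and 4.76 in the DOX-negative libraries, and the groups overlapped (log2 difference -0.15, exact permutation p = 0.2, and 0.267 after adjustment over 4 ratios). SCAP, the escort protein, read 63.8, 64.2 and 67.9 CPM in DOX-positive libraries, against 61.0, 59.0 and 59.6 CPM in DOX-negative ones. Its increase was the smallest of those called (log2 fold change 0.13, SE 0.03, edgeR adjusted p = 0.00388), and it was -0.018 on the log2 scale with libraries scaled by size alone.

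**Figure D3:**
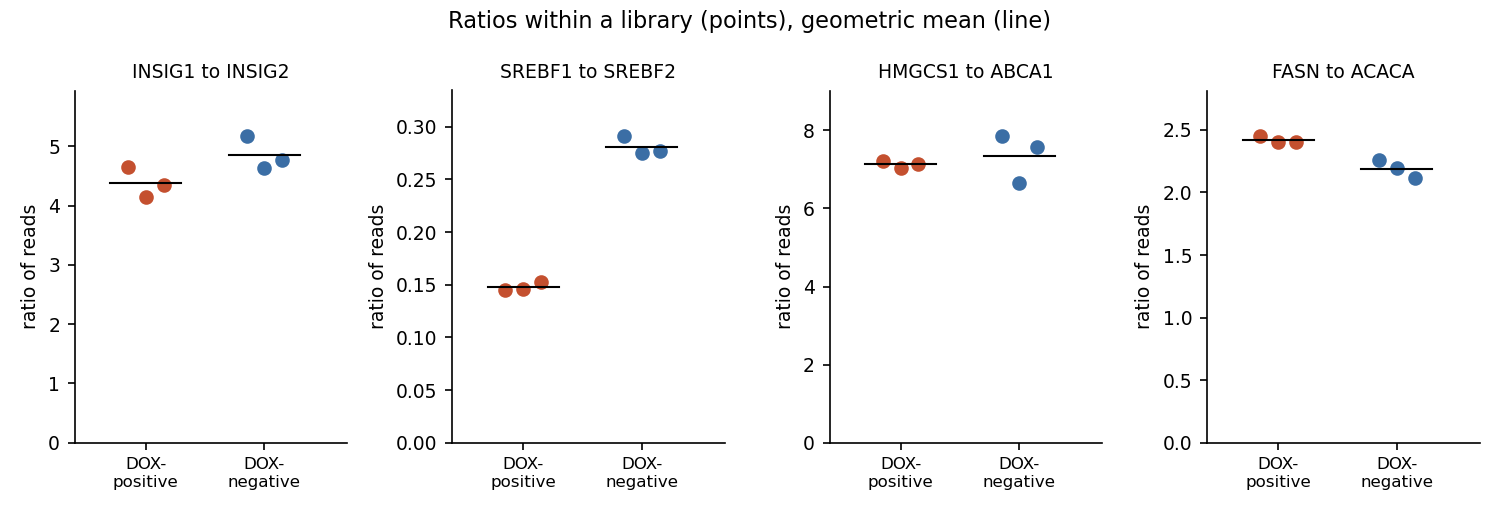
Ratio of reads of 2 genes within each library (points) with the geometric mean of the group (line), each axis starting at 0 and DOX-positive on the left. The SREBF1 to SREBF2 ratio lies between 0.145 and 0.152 in DOX-positive and between 0.275 and 0.291 in DOX-negative libraries, while the HMGCS1 to ABCA1 ratio overlaps between the groups.

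ABCA1 and MYLIP, the LXR-driven genes of export and receptor turnover, did not move together, nor uniformly against synthesis. ABCA1, which loads cholesterol onto apolipoproteins (ENSG00000165029.16, chr9:104781002-104928237, minus strand), read 49.99, 51.3 and 50.3 CPM in DOX-positive libraries, against 20.9, 22.3 and 21.6 CPM in DOX-negative ones. It was 2.34-fold higher (log2 fold change 1.22, SE 0.04, edgeR adjusted p = 6.68e-14), the highest fold change of the 29, though its distance from HMGCS1 is no larger than their SEs together, and 97.6% of genes tested had a lower fold change. MYLIP, the ligase also called IDOL (ENSG00000007944.15, chr6:16129125-16148248, plus strand), read 27.8, 27.6 and 27.4 CPM in DOX-positive libraries, against 38.7, 38.4 and 40.0 CPM in DOX-negative ones and was 1.41-fold lower (log2 fold change -0.50, SE 0.03, edgeR adjusted p = 2.2e-09). LXR receptors are known to drive both genes, and here their groups were clear of each other in opposite directions.

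HMGCS1 and ABCA1, the synthesis and export genes with the largest rises, had a ratio of reads of 7.22, 7.05 and 7.15 in the DOX-positive libraries, against 7.84, 6.66 and 7.57 in the DOX-negative libraries. The log2 difference was -0.041, with SDs of 0.02 and 0.12 in DOX-positive and DOX-negative libraries, and the groups overlapped (exact permutation p = 0.6, also 0.6 after adjustment over 4 ratios). That p does not show that the genes changed alike. The median log2 fold change was 0.62 over the 21 enzymes of sterol and fatty acid synthesis. Over ABCA1 and MYLIP it was 0.36, a middle of 1.22 and -0.50. STARD4, a soluble sterol carrier and SREBP target, rose 1.39-fold, with 115, 119 and 119.8 CPM in DOX-positive libraries, against 86.9, 80.4 and 87.6 CPM in DOX-negative ones (log2 fold change 0.47, SE 0.04, edgeR adjusted p = 1.16e-08).

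Of 14 other LXR and export genes tested, 6 (42.9%) were higher, 6 (42.9%) lower and 2 not called (median log2 fold change 0.071), and NR0B2 was too low to test. Among the 10171 genes 49.8% were higher and 29.4% lower. ABCG1, an exporter to high-density lipoprotein that LXR is also known to drive, read 0.465, 0.754 and 0.726 CPM in DOX-positive libraries, against 4.49, 3.71 and 4.26 CPM in DOX-negative ones. It fell 6.33-fold (log2 fold change -2.66, SE 0.16, edgeR adjusted p = 5.91e-10), in the opposite direction to ABCA1. The genes that rose included ABCA7 (log2 fold change 0.61), the LXR target SMPDL3A (0.88), NR1H2, which encodes LXR-beta (0.38), and its partner receptor gene RXRB (0.34). The transporter ABCA2 (-0.36), the receptor gene RXRA (-0.22) and SCARB1, a receptor for high-density lipoprotein (-0.18), fell.

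Of the 3 fatty acid synthesis genes 2 rose, while 49.8% of the 10171 genes were called higher and 29.4% lower. The median log2 fold change of the 3 was 0.21, beside 0.68 over the 18 sterol enzymes and 0.099 over the 10171. ACLY, which makes cytosolic acetyl-CoA from citrate, read 528, 526 and 522 CPM in DOX-positive libraries, against 454, 432 and 438 CPM in DOX-negative ones (log2 fold change 0.25, SE 0.03, edgeR adjusted p = 1.37e-06). FASN, the fatty acid synthase (ENSG00000169710.9, chr17:82078333-82098332, minus strand), read 608, 599.6 and 616 CPM in DOX-positive libraries, against 545, 507 and 528 CPM in DOX-negative ones, and its groups were clear of each other by a small margin (log2 fold change 0.21, SE 0.03, edgeR adjusted p = 2.18e-05). With libraries scaled by size alone, ACLY was at 0.11 and FASN at 0.064 (edgeR adjusted p = 0.0488). ACACA, the carboxylase that makes malonyl-CoA, read 249, 249.8 and 257 CPM in DOX-positive libraries, against 241, 231 and 249 CPM in DOX-negative ones. Its groups overlapped (log2 fold change 0.065, SE 0.03, edgeR adjusted p = 0.121), and with libraries scaled by size alone it was called lower, at -0.078 (edgeR adjusted p = 0.0318). Without DOX-negative replicate 3 it was called higher, at 0.11 (edgeR adjusted p = 0.0412).

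The FASN to ACACA ratio of reads was 2.45, 2.40 and 2.40 in the DOX-positive libraries, against 2.26, 2.19 and 2.12 in the DOX-negative libraries. All 3 DOX-positive ratios were the higher ones (log2 difference 0.14, exact permutation p = 0.1, and 0.2 after adjustment over 4 ratios). The difference between the sterol and fatty acid groups as groups was not tested. Every one of the 18 sterol enzymes except TM7SF2 and FDFT1 had a larger log2 fold change than ACLY.

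Compared per length, the levels of the 29 genes spanned from 2.78 (MVK) to 101 (ACLY) CPM per kilobase in DOX-positive cells, and from 1.67 (MVK) to 84.8 (ACLY) in DOX-negative cells. ACLY was at the top in both groups. HMGCS1 stood at 54.4 CPM per kilobase in DOX-positive cells and 23.9 in DOX-negative cells, at place 5 in DOX-positive cells and place 10 in DOX-negative cells. DHCR7 stood at 73.6 CPM per kilobase in DOX-positive cells and 45.0 in DOX-negative cells, above FASN in DOX-positive cells and below it in DOX-negative cells. ABCA1, for all its rise, was at place 27 of 29 in both groups, with 4.48 CPM per kilobase in DOX-positive cells and 1.92 in DOX-negative cells. SREBF2 stood at 42.1 CPM per kilobase in DOX-positive cells and 29.9 in DOX-negative cells, among the 8 highest in both. By CPM without length, FASN and not ACLY came first in both groups.

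**Figure D4:**
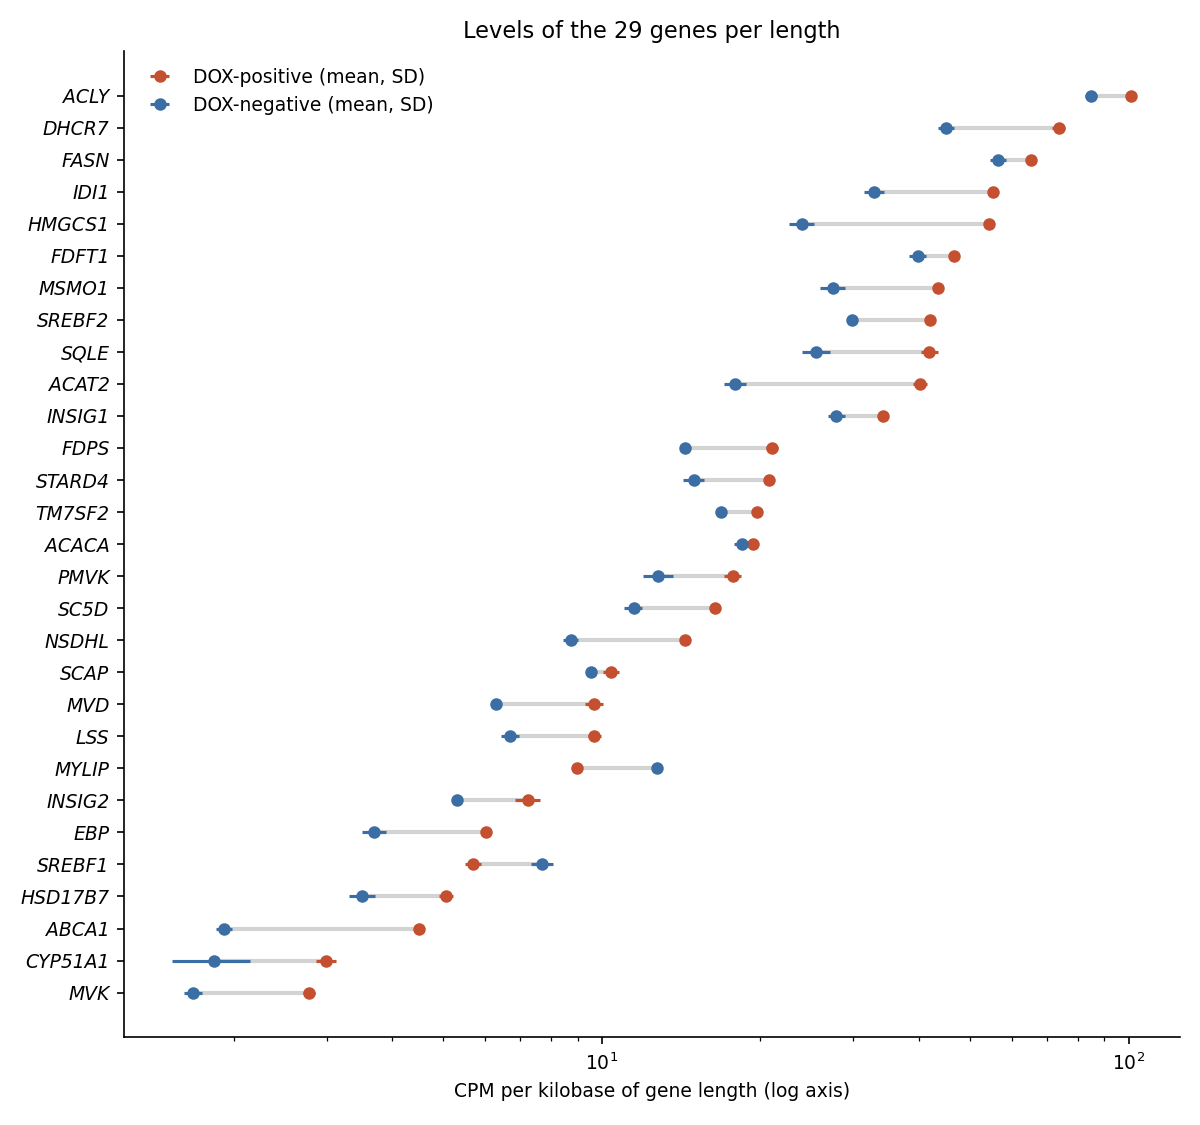
Mean level of each of the 29 genes in CPM per kilobase of gene length (log axis), with SD over 3 libraries, in DOX-positive (red) and DOX-negative (blue) cells, ordered by the DOX-positive level. Red lies right of blue except for SREBF1 and MYLIP, and ACLY is highest in both groups.

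Of 28 other genes of sterol handling and SREBP control, 16 (57.1%) were higher, 8 (28.6%) lower and 4 not called, with a median log2 fold change of 0.10. These shares lay near the 49.8% higher and 29.4% lower among the 10171 genes, while all genes tested had 27.6% and 28.9%. With libraries scaled by size alone 12 were higher and 11 lower. NPC2 and NPC1, which pass cholesterol out of lysosomes, rose 1.72-fold and 1.45-fold, and NPC1 averaged 975 ± 13.1 CPM in DOX-positive cells and 673 ± 19.4 CPM in DOX-negative cells (SD, n = 3 each). TMEM97, a sterol-regulated membrane protein that binds NPC1, rose 1.49-fold. The proteases that release SREBPs in the Golgi were lower. MBTPS1, the first to cut, read 81.4, 80.5 and 84.7 CPM in DOX-positive libraries, against 178, 176 and 181 CPM in DOX-negative ones and fell 2.17-fold (log2 fold change -1.12, SE 0.03, edgeR adjusted p = 7.49e-14). MBTPS2, the second protease, fell 1.60-fold, PAQR3, a Golgi protein reported to tether SCAP, fell 1.84-fold, and the mitochondrial sterol hydroxylase gene CYP27A1 fell 1.64-fold. These 4 are named as the genes of this list called lower with the smallest p, so their direction follows from that choice. Their groups did not overlap, and 30.5% of the 10171 genes likewise lay clear below.

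Of 21 other fatty acid genes tested, 12 (57.1%) were higher and 4 (19.0%) lower (median log2 fold change 0.16), beside 49.8% and 29.4% of the 10171 genes. With libraries scaled by size alone 9 were higher and 8 lower. THRSP was too low to test. ACSS2, which makes acetyl-CoA from acetate, rose 1.74-fold, with 148, 152 and 150.5 CPM in DOX-positive libraries, against 89.4, 82.3 and 86.9 CPM in DOX-negative ones (log2 fold change 0.80, SE 0.04, edgeR adjusted p = 1.08e-11). GPAM, an acyltransferase of glycerolipid synthesis, had a log2 fold change of 0.50, the phosphatidate phosphatase LPIN1 0.47 and the acyl-CoA synthetase ACSL4 0.42. The desaturase FADS1 fell 1.78-fold, with 318 ± 5.26 CPM in DOX-positive cells and 566 ± 16.1 CPM in DOX-negative cells. MLXIPL, which encodes the carbohydrate-responsive factor ChREBP, fell 1.55-fold and FADS2 1.13-fold. ELOVL5, an elongase, had -0.087 (edgeR adjusted p = 0.0481), a call lost under 9 of 14 alternatives, with adjusted p up to 0.499.

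Of the genes in the branches of mevalonate that do not lead to sterol, 7 of 15 (46.7%) were higher and 3 (20%) lower, with a median log2 fold change of 0.072. The share called higher lay near that of the 10171 genes, 49.8%, and 29.4% of those were lower. With libraries scaled by size alone 6 were higher and 6 lower. DHDDS, of dolichol synthesis, rose 1.47-fold, and its partner NUS1 1.22-fold. DPM1, a mannosyltransferase that uses dolichol, rose 1.29-fold, and ICMT, which methylates prenylated proteins, had a log2 fold change of 0.31. RCE1, the protease that trims prenylated proteins, fell 1.84-fold, with 12.6, 13.0 and 13.5 CPM in DOX-positive libraries, against 23.0, 25.5 and 23.3 CPM in DOX-negative ones (log2 fold change -0.88, SE 0.05, edgeR adjusted p = 2.76e-10). RABGGTB, a subunit of the enzyme that prenylates Rab proteins, fell 1.32-fold, and PDSS1, which builds the coenzyme Q tail, 1.33-fold.

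**Figure D5:**
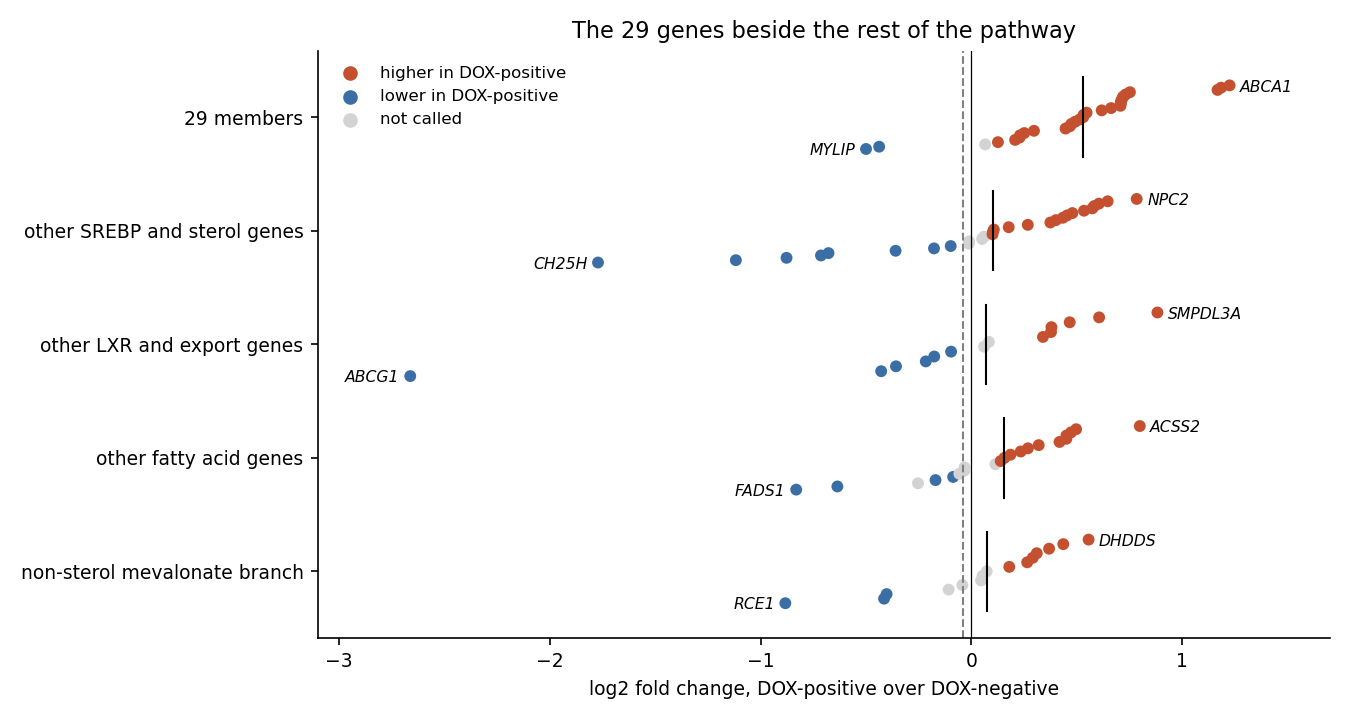
Log2 fold change in DOX-positive over DOX-negative cells of the 29 genes and of 4 other lists of the pathway, 1 point per tested gene, red where called higher, blue where called lower and grey where not called, with a black bar at each list's median and a dashed line at the median of all genes. The bar is at 0.53 for the 29 genes and between 0.071 and 0.16 for the other lists, and ABCG1 lies farthest left.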

How the data were processed

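Gene expression was measured by RNA sequencing in 6 DU-145 cultures. The deposited table holds raw read counts per gene and library, with a gene length, per the file headers. Among tools, the submitters' processing notes list STAR 2.7.9a, CASAVA 1.8.2 and DESeq2 1.24.0, with GRCh38.p7 as build and no roles. No counting tool, annotation, strand setting or treatment of shared reads is stated there, so overlapping genes and antisense partners are uncertain. The labels speak of triplicate cultures and nothing more, so a p-value measures only the spread among these, which may be technical.

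Groups and replicate numbers came from sample titles. All genes passing filterByExpr (minimum count 10, minimum total 15) entered the quasi-likelihood test (edgeR 4.0.16, R 4.3.3), with TMM scaling, group as the only term and Benjamini-Hochberg adjustment over 24695 genes at 0.05. SE is the size of the log2 fold change over the root of its F statistic. CPM uses TMM-scaled library sizes, and levels between genes are divided by the deposited length. A count of 3 reads, the limit that a count of 0 allows, was 0.0204 to 0.0328 CPM per library, for counting error only. Chi-square per degree of freedom within groups was 6.40 to 20.8, so no libraries agreed within sampling noise. Genes without a symbol (66) took 0.000516% of reads.

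The 29 genes, the 4 other lists and the ratios were chosen with earlier results of these data known. From each other list up to 4 called genes per direction with the smallest p are named, except for what is not reported here. Positions and exon overlaps came from GENCODE 29 (GRCh38) and promoters from RefSeq (GRCh38.p14). Alternatives were other scalings and filters, the Wald test of DESeq2 1.42.0, voom in limma 3.58.1, a block for replicate number and the omission of each library. Ratios used exact permutation tests in scipy 1.17.1, and figures matplotlib 3.10.9.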

Additional observations from a re-analysis of the deposited data

How the results depend on the processing

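Over 14 alternatives, 27 of the 29 genes kept their direction and call under each one. The exceptions were SCAP and ACACA. SCAP was -0.018 with library size alone (edgeR adjusted p = 0.623) and lost its call with upper-quartile scaling (0.066, edgeR adjusted p = 0.0652). Library size alone also lowered FDFT1, TM7SF2, INSIG1, ACLY and FASN by over 1.5 times, without loss of their calls. ACACA was -0.078 with library size alone (edgeR adjusted p = 0.0318) and was called higher, at 0.084 and 0.11, with no filter (edgeR adjusted p = 0.0377) and without DOX-negative replicate 3 (edgeR adjusted p = 0.0412). MUC1 stayed between -4.10 and -3.90. The counts of the 29 were 25 to 27 higher and 2 to 3 lower, and 18 sterol enzymes rose under each alternative. With library size alone 8 other fatty acid genes and 6 genes of the non-sterol branch were lower. That branch had 5 lower with upper-quartile scaling and with at least 1 CPM in 3 libraries. The median of the synthesis enzymes was 0.56 with upper-quartile scaling and 0.47 with library size alone, and 0.60 to 0.66 with each library left out. The median of ABCA1 and MYLIP was 0.39 with DESeq2 size factors and with the DESeq2 Wald test. It was 0.30 with upper-quartile scaling, 0.22 with library size alone and 0.33 with at least 1 CPM in 3 libraries. With each library left out it was 0.37 to 0.39. The HMGCS1 to ABCA1 difference ranged from -0.11 to 0.0073, the highest without DOX-negative replicate 1. The cause of these shifts was not tested.

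Same-numbered libraries had correlations of -0.07, -0.03 and 0.01 between their deviations from the group means. Of 6 libraries, 1 correlated best with its own number. No pairing by number was seen, but with 3 libraries per group these values cannot exclude it. With the replicate block 26 of the 29 rose and 2 fell, over all genes 6670 rose and 6833 fell, and no call among the 29 changed. Depth limits NR0B2 and THRSP, which were too low to test. CYP51A1 had the widest error of the 29, with 514 to 1463 reads per library. With each library left out its log2 fold change was 0.64 to 0.87, the highest without DOX-negative replicate 1.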

Other observations

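The genes given here fall outside the naming rule and were chosen after their values were seen. CH25H, which makes an oxysterol and is known as an interferon-inducible gene, read 0.133, 0.138 and 0.101 CPM in DOX-positive libraries, against 0.422, 0.354 and 0.524 CPM in DOX-negative ones, and fell 3.42-fold (log2 fold change -1.77, SE 0.33, edgeR adjusted p = 0.000198) on at most 52 reads per library. SCD, the stearoyl-CoA desaturase and an SREBP target, averaged 2485 ± 49.3 CPM in DOX-positive cells and 2542 ± 59.4 CPM in DOX-negative cells (SD, n = 3 each). Its groups overlapped (log2 fold change -0.033, edgeR adjusted p = 0.234). VLDLR, a lipoprotein receptor that MYLIP is known to degrade, fell 1.28-fold, with 25.3, 26.1 and 25.0 CPM in DOX-positive libraries, against 35.04, 31.5 and 31.6 CPM in DOX-negative ones. ERG28, a scaffold of sterol demethylation, rose 1.52-fold.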
